A study of Mus musculus with 2 samples.

Results

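Guanylate-binding proteins (Gbp) and immunity-related GTPases (IRG) are GTP-hydrolysing enzymes that interferons induce in mouse cells. The 10 genes followed here were those whose probes carry the symbol Gbp2, Gbp3, Gbp4, Gbp5, Gbp6, Igtp, Irgm1, Irgm2, Iigp1 or Tgtp1, 10 of 20738 genes with a named probe. They were read by 14 probes on 23 spots. Of these probes 12 carry a member's symbol in the platform annotation itself, and 2 were annotated Mpa2l, an older name that the RefSeq accession assigns to Gbp6.

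The values come from 2 one-colour (Cy3) mouse arrays, 1 for a culture labelled Gfi1 knockout and 1 for a culture labelled Gfi1 wild type. Gfi1 encodes a zinc-finger repressor of transcription. Both cultures were C57BL/6 splenic naive CD4 T cells, purified with an isolation kit as CD44 low, CD62L high and CD25 negative, and kept for 2 days on immobilised anti-TCR-β (3 µg/ml), which engages the T cell receptor, with anti-CD28 (1 µg/ml). Both also received IL-2 (10 ng/ml), an antibody to IL-4 (5 µg/ml) and an antibody to IFN-γ (5 µg/ml), the main inducer of the GTPases. The sources used here state neither how the Gfi1 allele was disrupted nor how many animals gave each culture.

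Since each genotype has 1 array, no test could be made, no p-value is given, and the spread between cultures is unknown. Differences are on the log2 scale, knockout-labelled minus wild-type-labelled library, after each array was scaled to its 75th percentile (269 and 263 units). A probe counted as detected above its array's median (14.6 and 14.2 units). Over the 13411 detected genes the median difference was -0.05, and the 5th and 95th percentiles were -0.54 and 0.81. Probes printed on 10 spots gave a median SD of the difference over spots of 0.11 at 50 to 500 units, 0.05 at 500 to 5000 units and 0.04 above that, and these SDs cover variation within the arrays only. The single Gfi1 probe read 18100 units in the knockout-labelled library and 4260 units in the wild-type-labelled library, against what a deletion covering the probe would give, so all directions rest on the labels. The sources used here do not place the probe relative to the deleted part. The libraries also differed in sex-linked RNA, with Xist at 3.86 units under the knockout label and 447 units under the wild-type label, and Eif2s3y at 3870 and 2.91 units, so genotype and sex cannot be told apart. The CD4 T cell label was matched by Cd4 (2146 and 2319 units) and Cd3e (15900 and 20900 units) on both arrays.

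As background, interferon-γ signals through JAK kinases to factors that bind GAS elements, and type I interferons signal to a complex with IRF9 that binds ISRE elements, which IRF1 can bind as well. Gbp and IRG proteins gather on the vacuoles of parasites and bacteria inside infected cells and help to break them. Among the IRG proteins, Irgm1, Irgm2 and the product of Igtp (also called Irgm3) act as regulators that sit on the cell's own membranes and hold the effectors inactive there, while the products of Iigp1 (Irga6) and Tgtp1 (Irgb6) are effectors that load onto the vacuole.

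The promoters are shown first, and whether the interferon elements in them bear on the differences was not tested. The RefSeq promoter table (build GRCm38.p6) held 7 of the 10 members, with 8 start sites, namely Igtp, Irgm1, Irgm2, Tgtp1, Gbp2, Gbp3 and Gbp5. Iigp1 and Gbp6, the members with the largest mean differences, and Gbp4 were not in it. The 250 bases before the start site are printed 5′ to 3′ for 6 of them, in lower case, with matches to the GAS letters TTCNNNGAA and to the ISRE core (GAAA and again GAAA with 2 bases between), on either strand, in capitals. They lie at chr11:58199306-58199555 (plus strand) for Igtp, chr11:58214727-58214976 (plus) for Irgm2, chr11:48992247-48992496 (minus) for Tgtp1, chr11:48871421-48871670 (minus) for Irgm1, chr3:142620413-142620662 (plus) for Gbp2 and chr3:142496684-142496933 (plus) for Gbp5.
Igtp: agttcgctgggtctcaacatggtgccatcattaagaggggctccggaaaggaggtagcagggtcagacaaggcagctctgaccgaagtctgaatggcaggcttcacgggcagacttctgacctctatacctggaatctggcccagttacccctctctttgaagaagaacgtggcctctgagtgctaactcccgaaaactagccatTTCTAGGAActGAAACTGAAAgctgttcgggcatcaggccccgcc
Irgm2: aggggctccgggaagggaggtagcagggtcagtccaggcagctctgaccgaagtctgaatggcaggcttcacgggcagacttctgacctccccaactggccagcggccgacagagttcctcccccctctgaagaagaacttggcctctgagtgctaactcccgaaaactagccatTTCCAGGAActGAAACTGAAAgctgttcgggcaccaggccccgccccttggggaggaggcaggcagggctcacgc
Tgtp1: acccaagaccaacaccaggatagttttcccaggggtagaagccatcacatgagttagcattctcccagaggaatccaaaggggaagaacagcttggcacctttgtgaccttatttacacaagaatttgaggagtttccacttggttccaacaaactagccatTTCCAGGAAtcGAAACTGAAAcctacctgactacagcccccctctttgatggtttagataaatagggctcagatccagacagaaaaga
Irgm1: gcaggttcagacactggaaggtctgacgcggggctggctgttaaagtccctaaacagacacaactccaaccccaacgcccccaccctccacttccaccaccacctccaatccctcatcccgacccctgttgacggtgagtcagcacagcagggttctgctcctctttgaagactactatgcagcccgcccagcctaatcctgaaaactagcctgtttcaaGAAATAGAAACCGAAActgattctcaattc
Gbp2: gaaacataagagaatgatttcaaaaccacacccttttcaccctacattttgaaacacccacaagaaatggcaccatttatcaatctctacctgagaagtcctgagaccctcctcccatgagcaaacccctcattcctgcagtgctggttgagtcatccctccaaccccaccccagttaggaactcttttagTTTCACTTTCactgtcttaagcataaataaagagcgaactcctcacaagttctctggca
Gbp5: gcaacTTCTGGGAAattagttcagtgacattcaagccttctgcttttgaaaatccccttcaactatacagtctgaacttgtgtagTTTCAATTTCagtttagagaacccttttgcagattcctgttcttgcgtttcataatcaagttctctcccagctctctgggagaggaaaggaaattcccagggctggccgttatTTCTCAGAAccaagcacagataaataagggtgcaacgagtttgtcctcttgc

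All 7 members in the table had an ISRE core, in 7 of their 8 promoters, against 3.44% of the 32851 promoters of the table. GAS letters stood in 4 of the 8 promoters, those of Igtp, Irgm2, Tgtp1 and Gbp5, against 8.30% of all promoters. Of 11 promoters of other listed GTPase genes, 5 had an ISRE core and 3 had GAS letters. The 5 include that of Gbp2b, whose probes were below the floor on both arrays. In Igtp, Irgm2 and Tgtp1 the GAS match lay directly before the ISRE core, at -45 to -37 and -34 to -25 from the start site in Igtp, at -75 to -67 and -64 to -55 in Irgm2, and at -88 to -80 and -77 to -68 in Tgtp1. The joined motif (GAS letters, 2 bases, then the ISRE core), searched after both matches had been seen at this spacing, occurred in 5 promoters of the whole table (0.0152%), and the 2 beside these members were those of Tgtp2, a near-identical neighbour of Tgtp1, and Gm12185. The upstream 250 bases of Igtp, Irgm2 and Tgtp1 share a run of 14 bases, aaactagccatttc, that runs into the GAS match, and Igtp and Irgm2, which are neighbours, share a run of 55 bases, so these promoters are not independent cases. Irgm1 had no GAS match and 2 overlapping ISRE cores at -30 to -21 and -24 to -15. Gbp2 had 1 ISRE core at -59 to -50, and Gbp3 had 2 overlapping ones at -45 to -36 and -39 to -30 of its first start site. Gbp5 carried GAS letters at -245 to -237 and -52 to -44 with an ISRE core at -165 to -156. The κB letters (GGG and CC with 5 bases between) stood in 5 of the 8 promoters and in 50.8% of all, the GAS letters with 4 bases between TTC and GAA in 1 of the 8 (the second Gbp3 start) and 6.95% of all, and the ISRE letters with 3 bases between both GAAA in 0 of the 8 and 2.75% of all. Both strands were read, a palindromic match counted once, and a match is a run of letters, not a measured binding site.

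**Figure D1:**
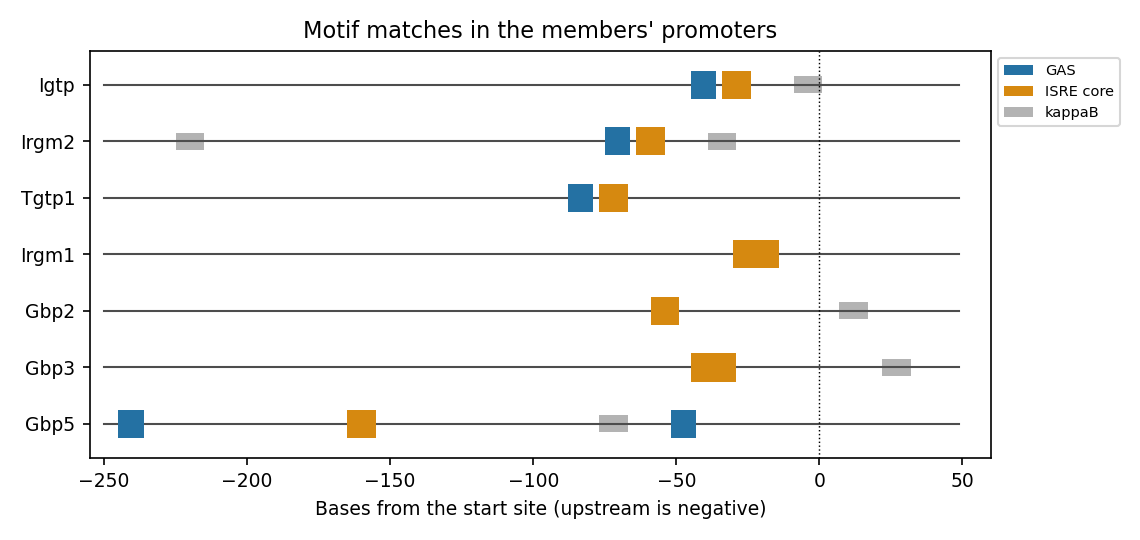
Positions of motif matches in the promoters of 7 members (rows) in bases from the start site on the x axis, with GAS matches in blue, ISRE cores in orange and κB letters in grey, first start site only for Gbp3. GAS and ISRE blocks stand side by side in Igtp, Irgm2 and Tgtp1, while Irgm1, Gbp2 and Gbp3 have ISRE cores and no GAS match.

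All 10 members were brighter in the knockout-labelled library. At least 2-fold higher were 6 of the 10, namely Iigp1, Gbp6, Irgm1, Tgtp1, Irgm2 and Igtp, and 0 were at least 2-fold lower. Over all 13411 detected genes 485 (3.62%) passed 2-fold upward and 204 (1.52%) downward, and 1.98% of the 6831 genes with 500 units or more on an array were at least 2-fold higher. The median difference of the members was 1.18, against -0.05 over all genes. All 10 were detected on both arrays, so none entered through the brighter library alone, but Gbp6 was detected only on its 2 probes annotated Mpa2l. By the annotation's own symbols Gbp6 was not detected, and 5 members, all of them IRG genes, passed 2-fold upward. The members were chosen with earlier results of these arrays known, so the count describes them and is not independent evidence. The 5 IRG members were all past 2-fold (median 1.36), against 1 of the 5 Gbp members (median 0.58), a contrast between the families that was not tested.

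**Figure D2:**
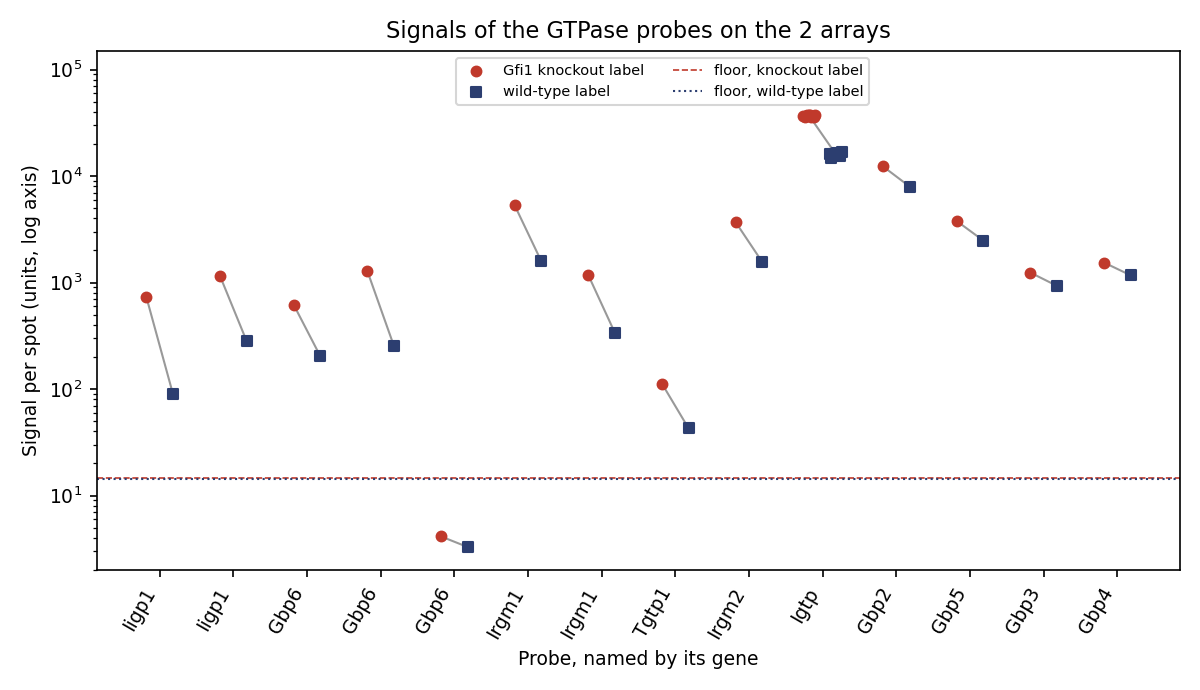
Signal per spot on a log axis for each of the 14 probes, ordered by the gene's difference, with the knockout-labelled library as red circles on the left of each pair and the wild-type-labelled library as blue squares on the right; dashed and dotted lines mark the floors of 14.6 and 14.2 units. The knockout-labelled spot is the higher one in every pair, and 1 of the 3 Gbp6 probes lies below the floor on both arrays.

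Among the regulators, Igtp was read on the most spots. Its probe was printed on 10 spots, which read 35500, 36750 and 37400 units (lowest, median, highest) in the knockout-labelled library and 14900, 16050 and 16800 units in the wild-type-labelled library. The difference of 1.16 (2.24-fold) had an SD of 0.04 over the 10 spots, which are copies of 1 probe on 1 array per genotype. Irgm1, which in mice is needed for resistance to several intracellular pathogens, read 5300 units on its brighter probe in the knockout-labelled library and 1590 units in the wild-type-labelled library. The other Irgm1 probe read 1170 and 337 units, and both gave the same size of difference (1.73 ± 0.04, SD over 2 probes, 3.33-fold). Irgm2, on 1 probe, read 3680 units in the knockout-labelled library and 1560 units in the wild-type-labelled library, a difference of 1.21 (2.31-fold). The 3 regulators were thus all higher, Irgm1 by more than the other two.

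The effectors covered a wider range. Iigp1 stood at 2.49 ± 0.70 (SD over 2 probes, 5.60-fold), the largest mean difference of the 10 members, and 0.485% of all detected genes had a larger one. With the brightest probe per gene it stood at 1.99, below Gbp6 (2.30), and with the 75th percentile as floor at 1.71, beside Irgm1 (1.73) and Gbp6 (1.73). Its probes read 729 and 1150 units in the knockout-labelled library, against 90.2 and 283 units in the wild-type-labelled library, so that they disagreed on the size (2.98 and 1.99) and not on the direction. Tgtp1 was dim on its own probe, with 112 units in the knockout-labelled library and 42.8 units in the wild-type-labelled library, a difference of 1.36 (2.56-fold). The probes annotated for its near-identical copy Tgtp2 read 22300 and 47.1 units in the knockout-labelled library, against 8940 and 22.8 units in the wild-type-labelled library, with differences of 1.29 and 1.01. Signals of the pair cannot be assigned to 1 gene with certainty, since a probe for either may bind both transcripts.

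The guanylate-binding proteins differed by less, with Gbp6 as the exception. Gbp2, which in mice coats vacuoles of Toxoplasma, read 12300 units in the knockout-labelled library and 7970 units in the wild-type-labelled library (difference 0.59, 1.51-fold). Gbp5, which is known to promote inflammasome assembly, read 3780 and 2480 units in the same order (0.58, 1.49-fold). Gbp3 read 1240 units in the knockout-labelled library and 931 units in the wild-type-labelled library (0.38, 1.30-fold). Gbp4 read 1540 and 1170 units in the same order (0.36, 1.29-fold). These 4 differences exceeded the SD over spots at their brightness, and 7.67% of all detected genes were at least 1.5-fold higher. In rank, 7.49% of genes stood above Gbp2 and 12.6% above Gbp4.

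Gbp6 depended on which probes carry its name. The 2 probes annotated Mpa2l read 618 and 1280 units in the knockout-labelled library, against 204 and 254 units in the wild-type-labelled library, with differences of 1.57 and 2.30 (mean 1.93 ± 0.52, SD over 2 probes, 3.82-fold). The probe annotated Gbp6 itself read 4.13 units in the knockout-labelled library and 3.29 units in the wild-type-labelled library, below the floor on both. Taken by the annotation's own symbols, Gbp6 was therefore not detected, and 5 of the 9 other members passed 2-fold upward, all of them IRG genes.

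In order of difference the members ran Iigp1, Gbp6, Irgm1, Tgtp1, Irgm2, Igtp, Gbp2, Gbp5, Gbp3 and Gbp4. The gaps between Irgm2 and Igtp (0.04), between Gbp2 and Gbp5 (0.02) and between Gbp3 and Gbp4 (0.02) were smaller than the SD over spots of the 2 genes combined (0.06, 0.06 and 0.07), so these neighbours are not ordered. The step from Igtp to Gbp2 (0.57) was the widest and exceeded that SD (0.06). The SD over spots leaves out disagreement between probes, which for Iigp1 (0.70) and Gbp6 (0.52) was larger than most gaps. Irgm2 and 1 of the Gbp6 probes were read on spots with feature numbers above 50000. At 500 to 5000 units 1.85% of such spots differed by 2-fold, against 1.79% of spots with lower numbers.

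**Figure D3:**
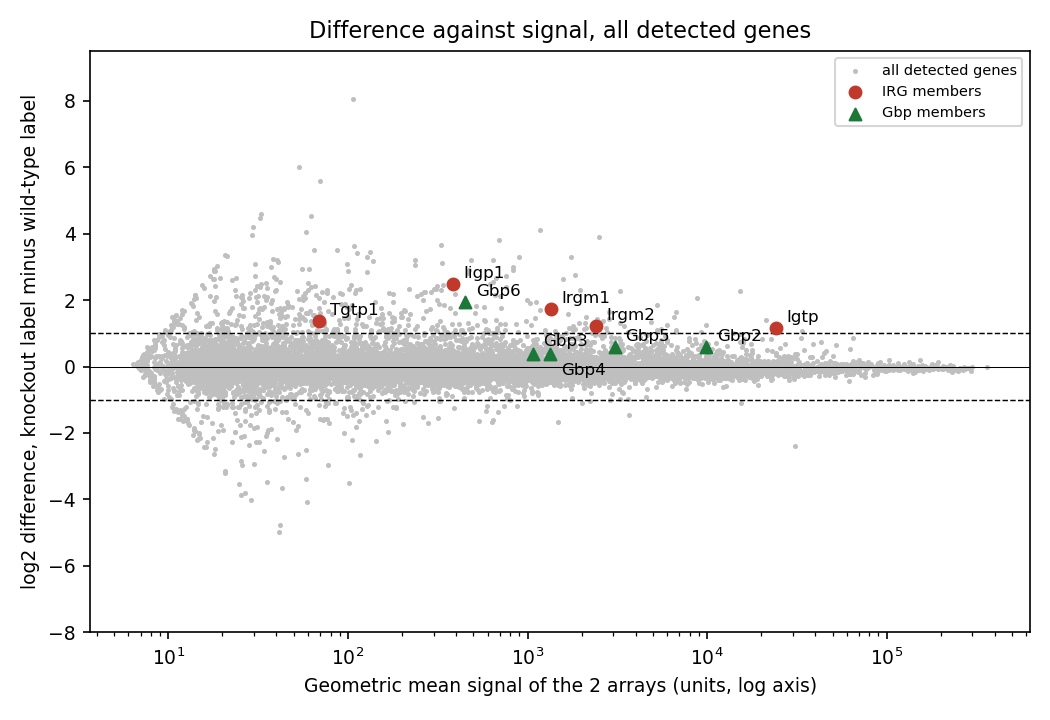
log2 difference (knockout-labelled minus wild-type-labelled library, y axis) against the geometric mean signal (x axis, log scale) for 13411 detected genes in grey, with IRG members as red circles and Gbp members as green triangles; dashed lines mark 2-fold. The 5 IRG members and Gbp6 lie above the upper dashed line and Gbp2, Gbp3, Gbp4 and Gbp5 lie between it and 0.

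Other genes of both families were listed as well. Of 14 with a named probe 12 were detected, of which 11 were higher and 1 lower, with 5 at least 2-fold higher and a median of 0.88. Over all detected genes the share at least 2-fold higher was 3.62%. These counts leave out 9930111J21Rik1 and 9930111J21Rik2, which are given at the end. Of the Gbp genes, Gbp9 read 489 units in the knockout-labelled library and 202 units in the wild-type-labelled library (1.24), and Gbp7 read 339 and 178 units in the same order (0.90). Gbp10, Gbp8 and Gbp11 stood at 0.86, 0.51 and 0.50, and Gbp2b, also called Gbp1, was below the floor with both its probes. Of the IRG genes, Gm12250 (Irgb10), an effector that in mice acts on bacterial membranes, read 1180 units in the knockout-labelled library and 473 units in the wild-type-labelled library (1.29). Ifi47 (Irgd) read 19800 and 11600 units in the same order (0.74). Irgq, a divergent family member, was the one that was lower, with 297 units in the knockout-labelled library and 402 units in the wild-type-labelled library (-0.47).

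Of the genomic neighbourhoods given here, that of Igtp and Irgm2 held the closest differences and the others spread more widely. Likeness between neighbours was not tested. In the order of protein-coding genes of the RefSeq table, Gm12250, Igtp and Irgm2 are neighbours and stood between 1.16 and 1.29. Irgm1, Tgtp1, Tgtp2 and Ifi47 form a second group, between 0.74 and 1.73. The grouping left out 9930111J21Rik1 (0.80), whose promoter lies between those of Irgm1 and Tgtp1, and 9930111J21Rik2 (0.20). Iigp1 lies with Gm4951, Gm4841 and F830016B08Rik. Gm4951 read 1000 units in the knockout-labelled library and 113 units in the wild-type-labelled library (3.11), and Gm4841 read 137 and 10.6 units, the second below the floor, so that it was at least 9.43-fold higher. F830016B08Rik read 17.6 units in the knockout-labelled library and 3.42 units, below the floor, in the wild-type-labelled library, and was at least 1.21-fold higher. Of the Gbp genes, Gbp5, Gbp7, Gbp3 and Gbp2 stood between 0.38 and 0.90 in 1 neighbourhood, and Gbp8, Gbp9, Gbp4, Gbp10 and Gbp6 between 0.36 and 1.93 in another. Gm12250, Irgm2, Gbp7, Gbp10, Gbp11 and Gm4951 lay on spots numbered above 50000. Of these, Gbp7, Gbp10 and Gm4951 lay at 50 to 500 units by the geometric mean of both libraries, where 9.02% of such spots reached a 2-fold difference, against 4.21% of those with lower numbers. Probes of such close relatives may bind more than 1 transcript.

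**Figure D4:**
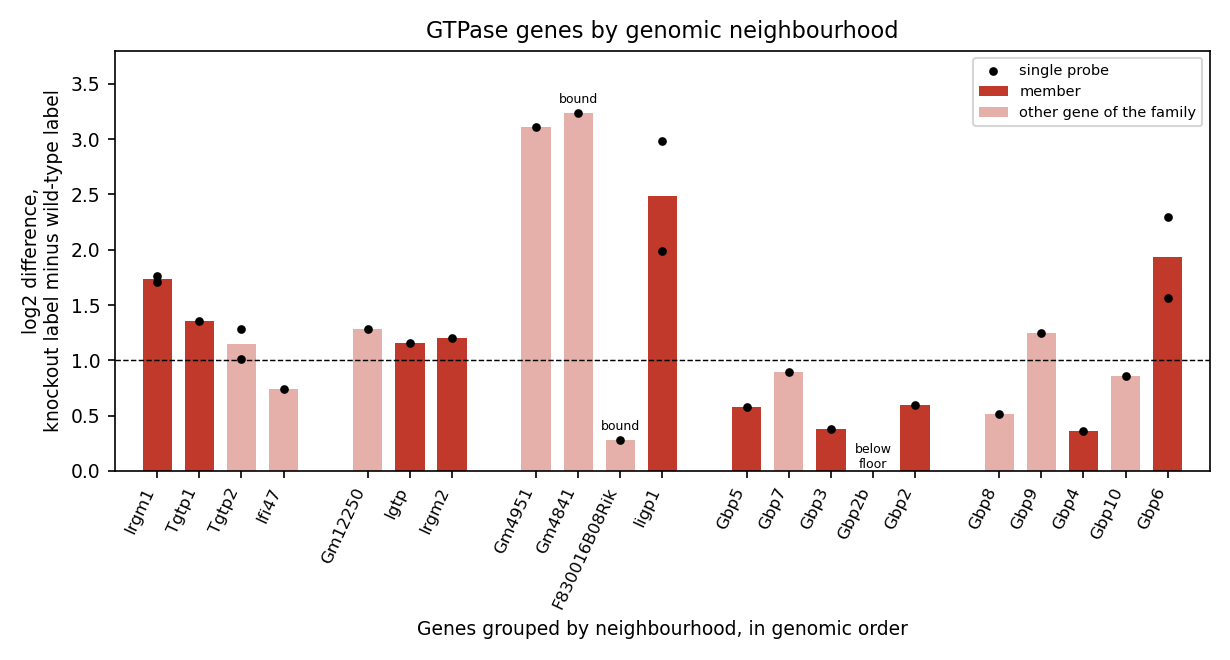
log2 difference (knockout-labelled minus wild-type-labelled library) as bars for members (red) and other genes of the families (pink), grouped by genomic neighbourhood, with each detected probe as a black point; bars marked as bounds rest on a wild-type-labelled signal below the floor, and the dashed line is 2-fold. Bars reach 3.24 (a bound) beside Iigp1 and lie between 0.38 and 0.90 in the neighbourhood of Gbp5 to Gbp2.

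Upstream genes of the pathway were set beside the GTPases. Of 14 detected interferon, Il27 and Ebi3 genes 10 were above 0 and 4 below, and 1 passed 2-fold upward and 1 downward. The list's median of 0.27 depended on the floor, with 0.49 when it was the 25th percentile and 2.35 when it was the 75th. At the 75th percentile only Ifng (4.11) and Ebi3 (0.59) remained detected, so 2.35 does not describe the list. The higher one was Ifng, with 4944 units in the knockout-labelled library and 279 units in the wild-type-labelled library (4.11). The lower one, Ifna7, read 7.59 units, under the floor, in the knockout-labelled library and 53.1 units in the wild-type-labelled library. Its spot is numbered above 50000. At 15 to 50 units by the geometric mean, 25.5% of such spots differed by 2-fold, against 7.99% of those with lower numbers. Ifnb1 read 22.7 units in the knockout-labelled library and 3.95 units, under the floor, in the wild-type-labelled library. Of the others, Ifna2 stood at 0.84, Ifnab at 0.61, Ifna5 at 0.32, Ifna14 at 0.23, and Ifna1 and Ifnl3 at 0.21. Il27 stood at -0.10 and Ifna12 at -0.12. Ifna11 (0.48) and Ifnk (-0.29) had 1 library under the floor. The interferon receptors and their JAK kinases differed little, with 0 of 7 past 2-fold, a median of 0.04 and a range from -0.04 to 0.22 (Ifngr1), with Ifnar2 at 0.18.

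Of 10 detected transcription factors and coactivators, 4 passed 2-fold upward and 0 downward (median 0.90), against 3.62% and 1.52% of all detected genes. Irf7, which amplifies the type I interferon response, read 343 units in the knockout-labelled library and 47.1 units in the wild-type-labelled library (2.83). Stat2 stood at 1.49, Irf8 at 1.24 and Nlrc5, the coactivator of MHC class I genes, at 1.01 ± 0.25 (SD over 2 probes). Irf9 stood at 0.93, Batf2 at 0.88, Irf5 at 0.77, Irf2 at 0.16 and Irf3 at -0.10. Irf1, an ISRE-binding factor, gave 1.30 on its bright probe (11700 units in the knockout-labelled library and 4650 units in the wild-type-labelled library) while a dim probe (19.8 and 14.0 units, the second below the floor) gave a lower bound of 0.45. The mean over both probes was 0.87. Of 12 inhibitors 3 were at least 2-fold higher (median 0.07), which were Usp18 (3.79), Socs3 (1.35) and Socs1 (1.11).

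Among partners of the GTPases, loading and lipid anchor genes differed little and inflammasome genes were more often higher. Of 15 genes of autophagy conjugation and vacuole loading 0 were past 2-fold and the median was -0.02, with either sign under other settings (-0.07 to 0.05). The largest were Ube2l6, which conjugates ISG15, at 0.72 and the ubiquitin ligase gene Trim21 at 0.61. Of 11 detected genes for lipid anchors and their escorts 0 were past 2-fold (median -0.09), with Fntb at -0.42 and Rabggta at 0.36. Of 8 detected inflammasome genes 6 were higher and 2 at least 2-fold higher (median 0.63), against 3.62% of all detected genes at least 2-fold higher. The 2 were Il18 (1.74, dim with 61.0 units in the knockout-labelled library and 17.9 units in the wild-type-labelled library) and the nucleic acid sensor gene Zbp1 (1.70 ± 0.27, SD over 2 probes). Casp4, the sensor of cytosolic lipopolysaccharide to which Gbp proteins give access, stood at 0.92 ± 0.05 (SD over 2 probes). The lower genes of the list were Pycard (-0.30) and Nlrp1a (-0.27).

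**Figure D5:**
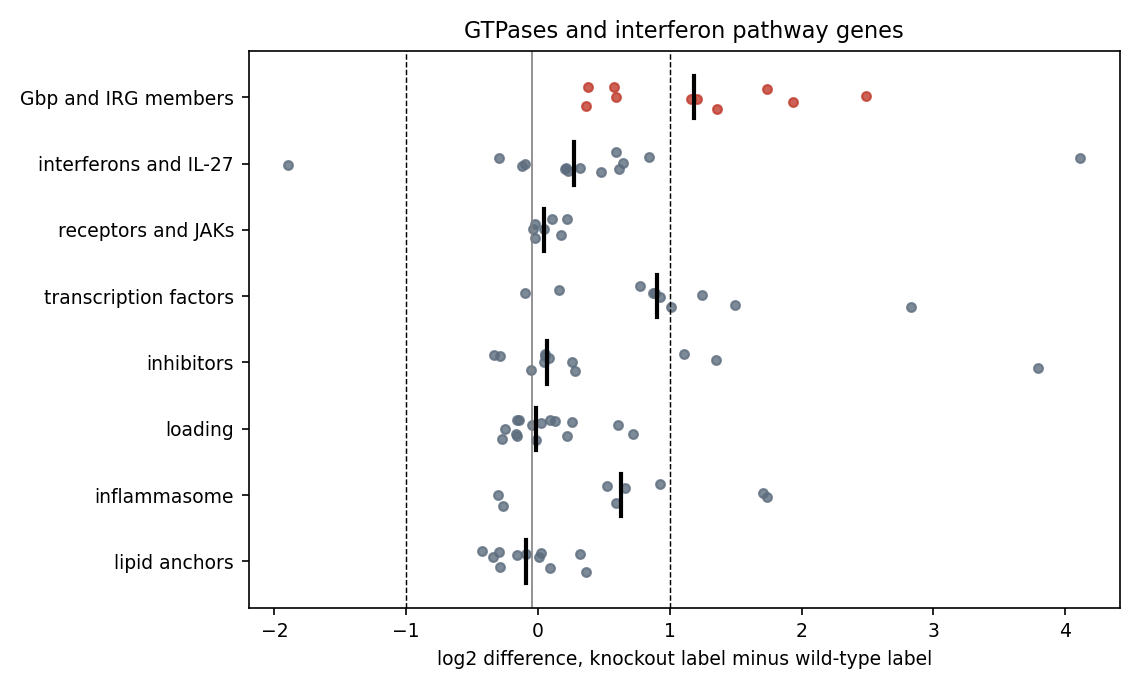
log2 difference (knockout-labelled minus wild-type-labelled library) per detected gene for the 10 members (red) and 7 lists of pathway genes (grey), with each list's median as a black bar, dashed lines at 2-fold and a grey line at the median of all genes (-0.05). The members' median of 1.18 and the transcription factors' of 0.90 lie highest, and receptors with JAKs, loading and lipid anchor genes cluster around 0.

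Markers of other cell types were read on the same arrays, where 3.62% of all detected genes were at least 2-fold higher. Of 15 CD8 T and NK cell markers 14 were higher and 8 at least 2-fold higher (median 1.07), namely Cd8a, Klrd1, Klrc1, Klra4, Klra8, Nkg7, Fcer1g and Tyrobp. The summed signal of these markers was 5598 units in the knockout-labelled library and 3116 units in the wild-type-labelled library, and Cd8a, Klrk1, Klrb1c and Ncr1 lay below the floor in the wild-type-labelled library. Of 8 detected B cell markers 7 were higher and 2 at least 2-fold higher, Ms4a1 (3.52) and Blnk (3.62), with a list median of 0.39. Their sum was 1228 units in the knockout-labelled library and 587 units in the wild-type-labelled library, and 621 and 538 units without Ms4a1 and Blnk. Of 10 detected myeloid markers 6 were higher and 4 lower (median 0.01), with Mpeg1 at least 23.1-fold higher. Their sum was 1272 units in the knockout-labelled library and 952 units in the wild-type-labelled library, and 937 and 940 units without Mpeg1. These 3 genes were chosen for leaving out after their values were seen. The median of the 10 detected CD4 T cell markers was -0.22, with Cd40lg alone past 2-fold (1.14). The part of these cells in the GTPase values was not tested, and in bulk RNA more cells of a type and more RNA per cell cannot be told apart.

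The genes with the difference nearest to the members' median, of 6608 candidates of at least 500 units in the knockout-labelled library outside the lists, were Cd74 (1.17), Tlr7 (1.20), Tap1 (1.16), Nupr1 (1.16) and Crem (1.16). With 2 arrays this likeness rests on 1 difference per gene.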

How the data were processed

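Total RNA (100 ng per array, per the labels' protocols) of 1 culture per genotype was hybridised to one-colour arrays processed with Agilent Feature Extraction 11.5.1.1, per the submitters' processing notes. The deposited per-array files hold the authors' intensity per spot on a linear scale, 59305 spots of 55681 probes per array. The sources used here do not state the background correction, and no flags came with the files. A second deposited table holds intensity per feature at a near-constant multiple of these values (median 2.26 for the knockout label, 2.27 for wild type); its columns, with medians of 34.8 and 34.4, are linear without centring, and how the multiples were chosen is unknown. It served as an alternative.

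Signals were put on the log2 scale, averaged over spots of a probe and scaled to each array's 75th percentile. Probes not above the array median on either array were left out, and an undetected side was set to that floor, giving a bound where no probe of a gene was detected there. Detected probes of a gene were averaged, and quoted gene signals are geometric means. Differences of at least 2-fold were counted. Without flags the floor is a convention, and the number of arrays limits the precision.

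Of the spots 31465 had 1 symbol and 27840 none. Symbols were updated through RefSeq accessions (GRCm38.p6) for 29050 spots, by symbol for 2061 and by synonym for 349, and 5 kept their name. The files name no genome build, and coordinates are those of the RefSeq promoter table. The members and gene lists were chosen with earlier results of these data known. All 10 members could be named, with Gfi1, genes of the lists as a rule set, and the 5 genes nearest to the members' median. Casp4, Pycard and Nlrp1a were named outside that rule. Sex-linked genes, Cd4, Cd3e and the joined promoter letters were chosen after values were seen. The averaging over spots, the scaling, the floor and the averaging over probes were also tested on simulated data. The other steps were not. Tools were numpy 2.4.6, pandas 2.3.3, matplotlib 3.10.9 and statsmodels 0.14.6 under Python 3.11.15.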

Additional observations from a re-analysis of the deposited data

How the results depend on the processing

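The 16 alternatives set at the start and 1 chosen after seeing the data gave 138 values for single members, and all 138 were above 0. The 1.5-fold and 4-fold thresholds changed counts only. With the median over probes, or only probes detected on both arrays, every member kept its main value, so the 138 are not separate checks. Of these, 12 moved by at least the gene's SD over probes or spots. Every alternative reused the same 2 arrays, so the spread between cultures stays unknown. The count of 6 members at least 2-fold higher was 5 in 3 settings (the 75th percentile as floor, no spots above feature number 50000, annotation symbols without update), 7 at a threshold of 1.5-fold and 1 at 4-fold. Tgtp1 gave no value in the first of these, Irgm2 none in the second and Gbp6 none in the third. Over its alternatives Iigp1 ranged from 1.71 to 2.55, Gbp6 from 1.37 to 2.30 and Igtp from 1.15 to 1.21. With the Tgtp2 probes included Tgtp1 stood at 1.22. The median of the other Gbp and IRG genes was 0.73 without spots above 50000, where fewer genes remain.

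Counts over all genes depended on the floor. Genes at least 2-fold higher and lower numbered 980 and 634 when the floor was the 25th percentile of the probes, 136 and 20 when it was the 75th, 1004 and 638 without floor or filter, 1029 and 570 at 1.5-fold, and 137 and 46 at 4-fold. The lower genes numbered 125 with only probes detected on both arrays, 117 with 16 units added and 105 without spots above 50000. The 10 pathway genes at least 2-fold higher became 23 at 1.5-fold and 3 at 4-fold. No paired analysis was possible because each genotype has 1 array. Dim probes such as that of Tgtp1 carry the least precision.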

Other observations

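GTPase genes left out of the family counts above were also read. The dynamin-like antiviral genes Mx1 and Mx2 stood at 2.26 and 2.34, with 591 and 682 units in the knockout-labelled library and 121 and 132 units in the wild-type-labelled library. Gvin1, a very large interferon-inducible GTPase gene, stood at 1.13 ± 0.26 (SD over 2 probes). 9930111J21Rik1, whose promoter lies between those of Irgm1 and Tgtp1 on chromosome 11, stood at 0.80 ± 0.41 (SD over 2 probes). 9930111J21Rik2 stood at 0.20. The family of this pair was not examined here. Atl3, an atlastin that shares the Gbp-type GTPase fold and shapes the endoplasmic reticulum, read 521 units in the knockout-labelled library and 519 units in the wild-type-labelled library (-0.03).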
